A study of Mus musculus with 11 samples.

Results

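Resident macrophages are tissue-dwelling phagocytes, and the genes described here are 10 genes by which they are commonly recognised: Csf1r, Cd68, Adgre1, Cx3cr1, Cd163, Mrc1, Lyve1, C1qa, C1qb and C1qc. They were compared across 3 mouse organs that make catecholamines. They were chosen by name, with earlier results of these data known but no threshold on measured values. Each was taken from the transcript cluster of the array that carries its symbol alone, and all 10 were measured, among 30142 named genes in all. Each member had 1 such cluster.

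The samples were whole pieces of tissue from C57B6 wild-type mice of both sexes aged 2 months. The carotid body, the arterial chemoreceptor, gave 3 arrays, each from a pool of 10 mice. The adrenal medulla, the catecholamine-secreting core of the adrenal gland, gave 4 arrays, and the superior cervical ganglion, a sympathetic ganglion, gave 4, each from a pool of 3 mice. A replicate is thus a pool and not an animal, and the labels do not say how animals were shared out among the pools.

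Macrophages settle in most organs before and after birth and are kept alive by signals through the receptor CSF1R. They engulf dying cells and debris, take up haemoglobin and glycoproteins through scavenger and endocytic receptors, and secrete C1q, the recognition molecule that starts the classical complement pathway. Those that lie along small vessels often carry LYVE1, CD163 and MRC1 (also called CD206), whereas those beside nerve fibres are often marked by the chemokine receptor CX3CR1. None of the 10 genes is perfectly private to macrophages. LYVE1 in particular is the classical marker of lymphatic endothelium, and MRC1 and LYVE1 are also found on sinusoidal endothelium.

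Values are log2 signals on the scale of the deposited table, and differences are tissue minus tissue on that scale, with the standard error (SE) of the fit. The limma adjusted p of a gene is corrected over all 30142 genes. A gene was called higher or lower at an adjusted p under 0.05 and a log2 difference of at least 1, which is 2-fold. A background bound for each tissue, the 95th percentile of 349 vomeronasal receptor and keratin-associated protein genes taken as silent, was 5.38 in carotid body, 5.35 in adrenal medulla and 5.45 in ganglion. Every member lay above it on all 11 arrays. The tissue labels were checked against defining genes. Rgs5 and Epas1, abundant in carotid body glomus tissue, averaged 19.04 ± 0.20 and 16.74 ± 0.48 in carotid body (SD, n = 3). Pnmt, the adrenaline-making enzyme, averaged 14.13 ± 0.68 in adrenal medulla, and Prph, a neuronal intermediate filament, 15.98 ± 0.39 in ganglion (SD, n = 4 each). The adrenal medulla arrays also carried Cyp11b1, a corticosterone-making enzyme of the adrenal cortex, at 19.61 ± 0.13 (SD, n = 4), and what part cortical macrophages had in those arrays was not tested. All 5 cortical and all 5 chromaffin cell genes were lower in the carotid body than there. Of 6 glomus cell genes 4 were higher and 2 lower in the same contrast, and all 5 neuronal genes were highest in ganglion. For 4 of these the carotid body arrays were called above the adrenal medulla arrays (Htr3a 56.6-fold, Tubb3 40.2-fold, Prph 31.1-fold, Nefl 7.09-fold). Chrna3 was not called in that contrast (-0.43). The neuronal mean was 10.66 to 13.49 over the carotid body arrays and 8.09 to 8.62 over the adrenal medulla arrays. What part neuronal tissue had in the carotid body contrasts was not tested. In whole tissue, fewer macrophages and less RNA per macrophage cannot be told apart.

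Promoter windows are shown first, for 5 members with a window in the table used: both C1q chains that have one, since C1qb and C1qc are neighbours that differed in their calls, and Cd68, Mrc1 and Cd163 from the other groups. C1qb, C1qc and C1qa lie next to each other, in that order, on chromosome 4 in the RefSeq annotation of GRCm38.p6. Windows of 300 bases ran from 250 bases before to 50 bases after the annotated start. They were taken from the RefSeq promoter table of GRCm38.p6 for 6 of the members (Cd68, Cx3cr1, Cd163, Mrc1, C1qb and C1qc). The other 4 members, Csf1r among them, were not searched. The 6 windows were searched on both strands for GAGGAA, the core of the site of PU.1, the factor that specifies the myeloid lineage. They were also searched for TGCTGA, a recognition sequence of the MAF family, factors active in macrophages. Capitals mark the matches, on either strand. The windows shown are those of C1qb (chr4:136886151-136886450, minus strand), C1qc (chr4:136892865-136893164, minus strand), Cd68 (chr11:69666121-69666420, minus strand), Mrc1 (chr2:14229164-14229463, plus strand) and Cd163 (chr6:124304401-124304700, plus strand), each read 5′ to 3′ along the gene.
C1qb: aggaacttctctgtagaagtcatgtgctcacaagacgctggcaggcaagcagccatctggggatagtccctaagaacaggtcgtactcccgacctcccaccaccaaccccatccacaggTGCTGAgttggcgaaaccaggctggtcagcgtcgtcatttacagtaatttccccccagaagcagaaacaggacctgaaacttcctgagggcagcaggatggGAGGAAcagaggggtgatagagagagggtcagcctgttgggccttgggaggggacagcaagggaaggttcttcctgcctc
C1qc: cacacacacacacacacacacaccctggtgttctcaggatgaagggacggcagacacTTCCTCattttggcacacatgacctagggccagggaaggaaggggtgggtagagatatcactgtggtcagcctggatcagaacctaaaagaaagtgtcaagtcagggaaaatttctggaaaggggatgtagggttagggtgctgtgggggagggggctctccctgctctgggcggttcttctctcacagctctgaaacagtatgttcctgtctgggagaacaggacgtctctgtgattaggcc
Cd68: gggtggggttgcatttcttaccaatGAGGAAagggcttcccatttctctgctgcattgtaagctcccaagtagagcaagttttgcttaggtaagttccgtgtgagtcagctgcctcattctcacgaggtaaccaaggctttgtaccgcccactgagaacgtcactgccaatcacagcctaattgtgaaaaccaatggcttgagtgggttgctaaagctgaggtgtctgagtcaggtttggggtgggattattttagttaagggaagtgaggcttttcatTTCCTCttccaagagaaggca
Mrc1: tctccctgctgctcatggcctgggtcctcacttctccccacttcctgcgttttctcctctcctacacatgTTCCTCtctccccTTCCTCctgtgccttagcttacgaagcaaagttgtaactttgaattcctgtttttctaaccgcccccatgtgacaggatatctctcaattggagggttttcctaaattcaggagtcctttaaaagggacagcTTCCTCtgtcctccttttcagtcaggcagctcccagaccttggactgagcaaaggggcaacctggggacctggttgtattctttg
Cd163: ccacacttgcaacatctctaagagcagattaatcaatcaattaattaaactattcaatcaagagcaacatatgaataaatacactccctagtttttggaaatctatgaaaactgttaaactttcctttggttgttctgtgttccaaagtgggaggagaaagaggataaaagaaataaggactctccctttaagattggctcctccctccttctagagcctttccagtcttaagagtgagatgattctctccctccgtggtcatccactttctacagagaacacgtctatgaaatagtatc

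The PU.1 core was present in 4 of the 6 windows, with 3 matches in Mrc1, 2 in Cd68 and 1 each in C1qb and C1qc, and 28.3% of all 32851 windows in the table held at least 1. The MAF sequence was present in the C1qb window alone among the 6, against 19.5% of all windows. In C1qb it began at position -131 and the PU.1 core at position -30, counted from the annotated start, and no matches overlapped. Cd163 and Cx3cr1 held neither set of letters. A match of letters is a description of sequence and not a binding site.

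Csf1r, the receptor for the growth factors CSF1 and IL-34 on which macrophages depend, differed by less than 2-fold between the 3 organs. It stood at 9.08, 9.30 and 9.15 on the carotid body arrays, at 9.08, 9.04, 9.08 and 9.08 on the adrenal medulla arrays, and at 8.99, 9.14, 9.24 and 8.74 on the ganglion arrays. The groups overlapped throughout. The difference was 0.11 for carotid body minus adrenal medulla (95% interval -0.14 to 0.36, limma adjusted p = 0.524), 0.15 for carotid body minus ganglion (-0.10 to 0.40, limma adjusted p = 0.35) and 0.04 for adrenal medulla minus ganglion (-0.19 to 0.27, limma adjusted p = 0.781). All 3 intervals lay inside the 2-fold limit.

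Adgre1, which encodes the adhesion-type surface receptor most often used to stain mouse macrophages, behaved like Csf1r. Its signal was 7.89, 8.21 and 8.28 in carotid body, 8.08, 8.08, 8.11 and 8.24 in adrenal medulla, and 8.03, 8.08, 7.92 and 7.64 in ganglion. Again no tissue stood clear of the others, with differences of 0.00 (95% interval -0.27 to 0.27), 0.21 (-0.06 to 0.48) and 0.21 (-0.04 to 0.46) for the contrasts in that order. Cx3cr1, the receptor for fractalkine, stood at 6.56, 7.18 and 7.28 in carotid body, 7.28, 7.28, 7.34 and 7.35 in adrenal medulla, and 7.07, 7.51, 7.54 and 7.10 in ganglion. Carotid body replicate 1 was the lowest of all 11 arrays for this gene. No contrast was called, with differences of -0.31 (95% interval -0.70 to 0.08), -0.30 (-0.69 to 0.08) and 0.00 (-0.36 to 0.36).

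Cd68, a glycoprotein of the macrophage lysosome, was highest in adrenal medulla. It read 7.22, 8.44 and 8.64 in carotid body, 9.90, 9.06, 9.53 and 9.06 in adrenal medulla, and 7.26, 7.99, 7.50 and 6.55 in ganglion. Every adrenal medulla array lay above every array of the other organs, while carotid body and ganglion overlapped. Adrenal medulla exceeded ganglion by 2.07 (4.19-fold, SE 0.37, limma adjusted p = 0.00103). Cd68 was lower in carotid body than in the adrenal medulla by 1.29 (2.44-fold, SE 0.39, limma adjusted p = 0.0307). That call was lost without carotid body replicate 1 (-0.85, limma adjusted p = 0.105), without adrenal medulla replicate 1 (-1.12, limma adjusted p = 0.0814) or without adrenal medulla replicate 3 (-1.24, limma adjusted p = 0.0699), and with array weights, where the difference fell just under 2-fold (limma adjusted p = 0.0403). The difference between carotid body and ganglion was 0.78 (95% interval -0.10 to 1.65) and was not called, but was 1.22 and called without carotid body replicate 1 (limma adjusted p = 0.0235).

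**Figure D1:**
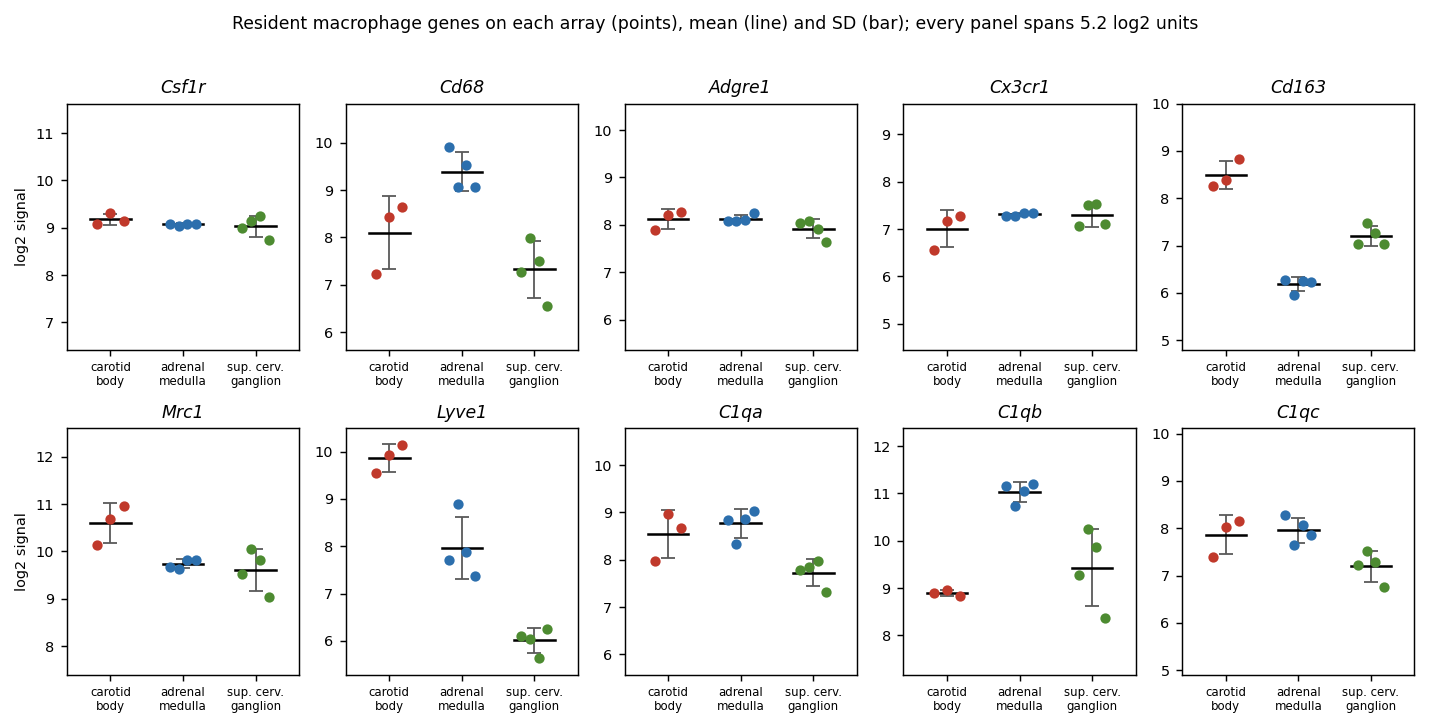
Log2 signal (vertical axis, every panel spanning the same number of log2 units) of the 10 macrophage genes on each array, by tissue, with the mean as a line and the SD as a bar. The tissue means of Csf1r, Adgre1 and Cx3cr1 lie within 2-fold of each other, Cd163 and Lyve1 are highest on the 3 carotid body arrays, and Cd68 and C1qb are highest on the 4 adrenal medulla arrays.

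Cd163, the receptor that clears haemoglobin bound to haptoglobin, ordered the organs with no overlap. Its signal was 8.27, 8.38 and 8.84 in carotid body, 6.27, 5.96, 6.26 and 6.24 in adrenal medulla, and 7.03, 7.48, 7.27 and 7.04 in ganglion. Carotid body was thus the highest, ganglion intermediate and adrenal medulla the lowest on every array. The difference was 2.31 for carotid body minus adrenal medulla (4.97-fold, SE 0.16, limma adjusted p = 1.35e-06) and 1.29 for carotid body minus ganglion (2.45-fold, SE 0.16, limma adjusted p = 7.86e-05). For adrenal medulla minus ganglion it was -1.02 (2.03-fold lower, SE 0.15, limma adjusted p = 0.000214), so close to the 2-fold limit that the call was lost without adrenal medulla replicate 2 (-0.95) and without ganglion replicate 2 (-0.93) or replicate 3, although the limma adjusted p was then 0.00103 at most. Median centring (-0.93) and quantile normalisation (-0.94) ended the call as well.

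Mrc1, the mannose receptor, pointed the same way as Cd163 at a smaller size. It stood at 10.13, 10.69 and 10.97 in carotid body, 9.67, 9.64, 9.82 and 9.82 in adrenal medulla, and 9.52, 10.05, 9.82 and 9.03 in ganglion. All carotid body arrays lay above all arrays of the other organs, and adrenal medulla and ganglion overlapped. Both differences fell short of the 2-fold limit, at 0.85 against adrenal medulla (1.81-fold, SE 0.24, limma adjusted p = 0.0197) and 0.99 against ganglion (1.98-fold, SE 0.24, limma adjusted p = 0.00778). Without carotid body replicate 1 both were called, at 1.09 and 1.22. The difference from ganglion was also called without ganglion replicate 2 (1.13) or replicate 3 (1.06). Array weights also gave a call in both contrasts (1.02 and 1.07), and quantile normalisation in that with ganglion (1.26).

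Lyve1, a receptor for the matrix glycan hyaluronan, spread the organs furthest apart of the members. It stood at 9.54, 9.93 and 10.13 in carotid body, 7.70, 8.89, 7.87 and 7.37 in adrenal medulla, and 6.11, 6.04, 5.65 and 6.25 in ganglion. The order was carotid body, adrenal medulla, ganglion, with no overlap between neighbours, and adrenal medulla replicate 2 was the highest of its group. Lyve1 was higher in carotid body than in the adrenal medulla by 1.91 (3.75-fold, SE 0.31, limma adjusted p = 0.00075) and than in ganglion by 3.86 (14.5-fold, SE 0.31, limma adjusted p = 4.79e-06). Adrenal medulla exceeded ganglion by 1.95 (3.86-fold, SE 0.29, limma adjusted p = 0.000261). Lyve1 therefore put adrenal medulla above ganglion, where Cd163 put it below.

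Because Lyve1 also marks lymphatic vessels, 5 measured genes of lymphatic endothelium were set beside it. Of these, 3 were higher and 1 was lower in the carotid body than in the adrenal medulla, 3 were higher and 1 was lower in the carotid body than in ganglion, and 2 were higher and 2 lower in adrenal medulla than in ganglion. Their mean log2 signal was 7.80 to 7.98 over the carotid body arrays, 7.43 to 7.55 over the adrenal medulla arrays and 7.03 to 7.15 over the ganglion arrays. Mmrn1, a secreted protein of lymphatic endothelium and platelets, averaged 6.63 ± 0.25 in carotid body and lay under the background bound in adrenal medulla (4.65 ± 0.07) and ganglion (4.74 ± 0.16). Reln, a matrix protein of lymphatic endothelium and some neurons, averaged 9.84 ± 0.52 in carotid body, 5.26 ± 0.05 in adrenal medulla, also under the bound, and 7.65 ± 0.09 in ganglion. Prox1, the transcription factor that specifies lymphatic endothelium, ran the other way, at 7.30 ± 0.20 in carotid body, 12.40 ± 0.05 in adrenal medulla and 8.55 ± 0.28 in ganglion. It was by far the brightest of the 5 in adrenal medulla, so the list mean there leaned on this gene. Flt4, the receptor of lymphatic growth factors, averaged 7.35 ± 0.12, 7.83 ± 0.24 and 5.64 ± 0.12 in the same order (SD, n = 3, 4 and 4). Pdpn, a surface glycoprotein, was highest in ganglion, at 8.46 ± 0.08, 7.36 ± 0.16 and 8.90 ± 0.27 in that order. Of 6 genes of sinusoidal endothelium, 2 were lower in carotid body than in the adrenal medulla, 1 was higher than in ganglion, and 3 were higher in adrenal medulla than in ganglion. Stab2, a defining gene of that endothelium, lay under the bound in all 3 tissues. What part lymphatic vessels had in the Lyve1 signal was not tested.

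**Figure D2:**
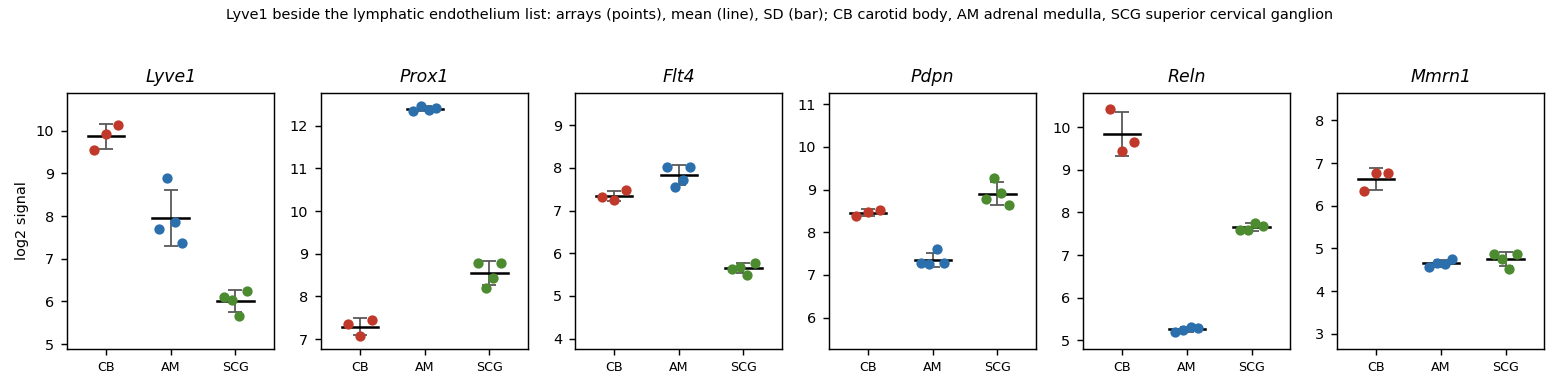
Log2 signal (vertical axis) of Lyve1 and of 5 lymphatic endothelium genes on each array, by tissue, with means as lines and SDs as bars. Mmrn1 and Reln share with Lyve1 a highest level on the carotid body arrays. Prox1 and Flt4 are highest in adrenal medulla and Pdpn in ganglion, and Prox1 is lowest in carotid body.

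The C1q chains, which assemble together into one hexameric recognition molecule, were not called in the same contrasts. C1qb was highest in adrenal medulla. It stood at 8.89, 8.97 and 8.84 in carotid body, 11.15, 10.74, 11.05 and 11.19 in adrenal medulla, and 9.27, 10.25, 9.86 and 8.36 in ganglion. The adrenal medulla arrays lay above all others, and the ganglion arrays spread on both sides of the tight carotid body group. C1qb was lower in carotid body than in the adrenal medulla by 2.14 (4.40-fold, SE 0.35, limma adjusted p = 0.000827), and adrenal medulla exceeded ganglion by 1.60 (3.04-fold, SE 0.32, limma adjusted p = 0.00254). For carotid body minus ganglion it differed by -0.53 (95% interval -1.31 to 0.24, limma adjusted p = 0.289).

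C1qa stood at 7.98, 8.97 and 8.67 in carotid body, 8.83, 8.34, 8.87 and 9.03 in adrenal medulla, and 7.78, 7.85, 7.97 and 7.32 in ganglion. Carotid body and adrenal medulla overlapped, and each lay above ganglion. The difference of C1qa was -0.23 between carotid body and adrenal medulla (95% interval -0.77 to 0.31), 0.81 between carotid body and ganglion (1.75-fold, SE 0.25, limma adjusted p = 0.0254) and 1.04 between adrenal medulla and ganglion (2.05-fold, SE 0.23, limma adjusted p = 0.00421). The last was the 1 called, and it fell under the limit without adrenal medulla replicate 4 (0.95) or ganglion replicate 4 (0.90), and with array weights (0.99). The difference between carotid body and ganglion was called at 1.09 without carotid body replicate 1.

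C1qc stood at 7.39, 8.03 and 8.16 in carotid body, 8.27, 7.65, 8.06 and 7.86 in adrenal medulla, and 7.22, 7.52, 7.29 and 6.75 in ganglion. It followed C1qa, with overlap between carotid body and the other organs, and adrenal medulla clear of ganglion. Its differences of -0.10 (95% interval -0.60 to 0.40), 0.67 (SE 0.23, limma adjusted p = 0.0425) and 0.77 (SE 0.21, limma adjusted p = 0.0149), for the contrasts in the same order as those of C1qa, did not reach 2-fold. C1qb was therefore the 1 chain called between carotid body and adrenal medulla, where the intervals of C1qa (-0.77 to 0.31) and C1qc (-0.60 to 0.40) did not reach that of C1qb (-2.91 to -1.36), though the difference between chains was not itself tested.

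**Figure D3:**
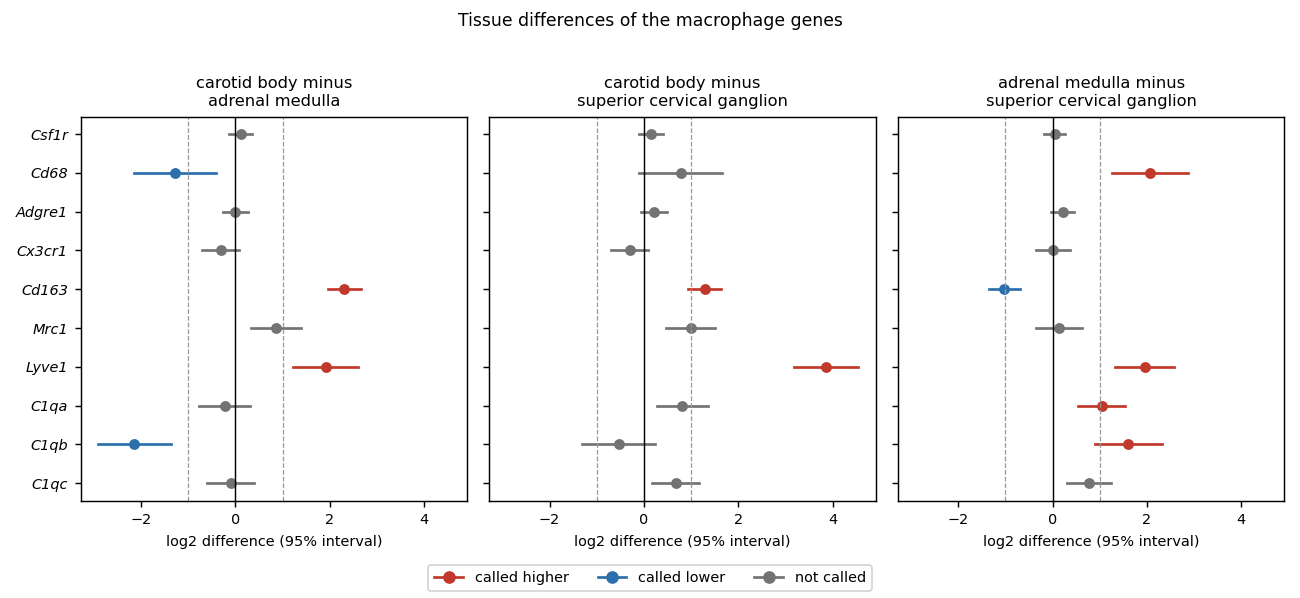
Log2 differences (horizontal axis) of the 10 genes between tissues with 95% intervals, dashed lines marking 2-fold. Scavenger and endocytic receptors lie to the right in carotid body minus adrenal medulla, Cd68 and C1qb lie to the left, and Csf1r, Adgre1 and Cx3cr1 lie near 0 in all 3 panels.

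Counted together, 2 of the 10 members (Cd163, Lyve1) were called higher and 2 (Cd68, C1qb) lower in carotid body than in the adrenal medulla. Over all genes 6.06% were called higher and 4.95% lower in that contrast. Against ganglion, 2 members (Cd163, Lyve1) were higher in carotid body and none was lower by limma, with all-gene shares of 5.61% and 8.28%. At an unadjusted p under 0.05 no member was lower in carotid body than in ganglion. In adrenal medulla minus ganglion 4 members (Cd68, Lyve1, C1qa, C1qb) were higher and 1 (Cd163) was lower, against 5.72% and 7.5% of all genes. Counting groups that did not overlap, 3 members lay above and 2 below for carotid body against adrenal medulla (19.2% and 19% of all genes), 4 above and 0 below against ganglion (14.8% and 21.1%), and 5 above and 1 below for adrenal medulla against ganglion (16.7% and 20.2%). The all-gene calls were 1828 higher and 1492 lower, 1691 and 2496, and 1725 and 2262, a split that moved to 1577 and 1966 for the first with median centring, and to 2150 and 2048 for the second and 2218 and 1896 for the third with quantile normalisation. The median difference over the members was -0.05, 0.72 and 0.49 in these contrasts, beside 0.05, -0.02 and -0.08 over all genes. Without carotid body replicate 1, the count higher in carotid body than in ganglion was 5, since Cd68, Mrc1 and C1qa joined. No member was lower in carotid body (1.68% of all genes), and none higher in ganglion (5.07%), than in both other organs. Carotid body exceeded both other organs for 2 members (Cd163, Lyve1) against 2.42% of all genes, and adrenal medulla for 2 (Cd68, C1qb) against 2.45%. Adrenal medulla lay below both others for 1 (Cd163) against 2.68%, and ganglion for 1 (Lyve1) against 2.28%. A total of 5 members (Csf1r, Adgre1, Cx3cr1, Mrc1, C1qc) were called in no contrast, as were 78.4% of all genes.

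The receptors were also set against the C1q chains on the same array. The mean of Cd163, Mrc1 and Lyve1 minus the mean of C1qa, C1qb and C1qc was 1.23, 1.01 and 1.42 in carotid body, -1.54, -0.75, -1.34 and -1.55 in adrenal medulla, and -0.54, -0.68, -0.79 and -0.04 in ganglion. The size of this value depends on the probes, so only its change between tissues can be read. All carotid body arrays lay above all others, and the ganglion arrays lay above the adrenal medulla arrays, except that ganglion replicate 3 lay below adrenal medulla replicate 2. The 3 chains, each read from 1 transcript cluster, had unlike differences, though the difference between chains was not tested. Between carotid body and adrenal medulla C1qb differed by -2.14, beside -0.23 for C1qa and -0.10 for C1qc. Against ganglion, C1qa (0.81) and C1qc (0.67) were brighter in carotid body, the direction of the receptors, and C1qb (-0.53) was not. The genes were grouped with their values known, and no test is given.

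**Figure D4:**
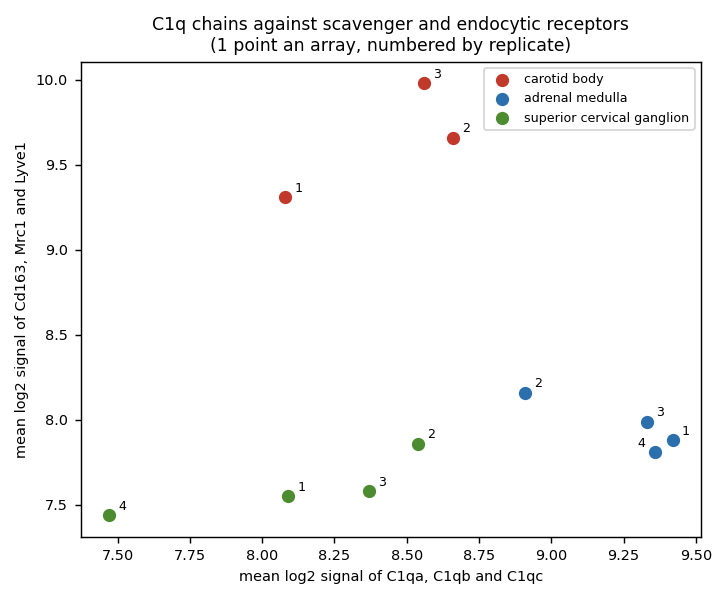
Mean log2 signal of Cd163, Mrc1 and Lyve1 (vertical axis) against that of C1qa, C1qb and C1qc (horizontal axis), 1 point an array, numbered by replicate. The 3 carotid body arrays form the upper group at 9.31 to 9.98, the adrenal medulla arrays lie at the right, and ganglion replicate 4 is lowest on both axes.

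Arrays of one tissue also differed together. Carotid body replicate 1 had the lowest value of its tissue for 9 of the 10 members, whereas it was the lowest for 45.1% of all genes. The same array had the highest mean over 5 genes of sympathetic neurons among the carotid body arrays, at 13.49 against 10.66 and 12.19 on replicates 2 and 3. Carotid body replicate 2 was the highest for 3 members and replicate 3 for 7 (36.7% and 32% of all genes). The neuron mean was 16.46, 16.06, 16.14 and 16.56 on ganglion replicates 1 to 4. Ganglion replicate 1 was lowest for 2 of 10 members (9.88% of all genes) and replicate 4 for 7 (23.4%). Adrenal medulla replicate 2 was also lowest for 7 members (20.4% of all genes), but highest for Lyve1. What part the tissue make-up of a pool had in these shifts was not tested.

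Other genes of macrophages, from lists chosen with earlier results of these data known, were counted in the same contrasts. Of 17 measured genes found across macrophages, none was called higher and 2 were called lower by limma in carotid body than in the adrenal medulla, and 2 and 8 had an unadjusted p under 0.05 in these directions. The 2 called lower were Cybb, the catalytic subunit of the phagocyte oxidase (8.17 ± 0.34 in carotid body, 9.84 ± 0.22 in adrenal medulla, 3.20-fold lower in carotid body), and Ctss, the lysosomal protease cathepsin S (10.47 ± 0.44 and 11.80 ± 0.14, 2.51-fold lower). In adrenal medulla 6 were higher than in ganglion and none was lower, led by Ctss (4.66-fold), Lyz2, the lysozyme of myeloid cells (3.88-fold), Cybb (3.78-fold) and Fcer1g, an adaptor of Fc receptors (2.34-fold). Against ganglion, 3 were higher in carotid body (Lyz2 4.63-fold, the phagocytic receptor kinase Mertk 2.09-fold and the lysosomal protein gene Laptm5 2.02-fold) and 1, the lysosomal protease gene Lgmn, was lower (2.11-fold). Only 1 was higher in carotid body without ganglion replicate 4, and 5 were without carotid body replicate 1. The median differences of the list were -0.38, 0.34 and 0.61, taking the contrasts in the order of the member counts.

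Genes of perivascular, LYVE1-bearing macrophages leaned to carotid body. Of 14 measured, 7 were higher and 0 lower in the carotid body than in the adrenal medulla, with a median difference of 0.99 beside 0.05 over all genes. They included F13a1, a coagulation factor subunit made by macrophages (8.57 ± 0.21 in carotid body, 5.68 ± 0.14 in adrenal medulla, 7.46-fold), Folr2, a folate receptor (7.64 ± 0.22 in carotid body and under the bound, at 5.31 ± 0.12, in adrenal medulla, at least 4.90-fold), Cbr2, a carbonyl reductase (3.91-fold), and Igf1, insulin-like growth factor 1 (3.26-fold, also a product of stromal cells). Against ganglion, 5 were higher in carotid body and 0 lower, among them Igf1 (4.15-fold), Folr2 (2.94-fold), Selenop, a selenium carrier (2.28-fold), and the chemokine gene Pf4 (2.23-fold). The median difference was 0.82 there and -0.18 for adrenal medulla minus ganglion. The count of 5 was 2 without ganglion replicate 4, and 3 without carotid body replicate 2 or replicate 3. In adrenal medulla F13a1 and Cbr2 were lower than in ganglion (4.87-fold and 2.40-fold) and none was higher, although 1 was without ganglion replicate 2 or replicate 3. F13a1 averaged 7.96 ± 0.50 and Cbr2 7.26 ± 0.47 in ganglion, so their means had the order of Cd163 (carotid body, ganglion, adrenal medulla), though neither was called between carotid body and ganglion. Mean log2 signal over the list was 7.14 to 7.55 on the carotid body arrays, 6.24 to 6.37 on the adrenal medulla arrays and 6.31 to 6.84 on the ganglion arrays. Of the 14 genes, 12 lay above the background bound in carotid body, 8 in adrenal medulla and 9 in ganglion. Between carotid body and adrenal medulla 7 were not called, and between carotid body and ganglion 9 were not.

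**Figure D5:**
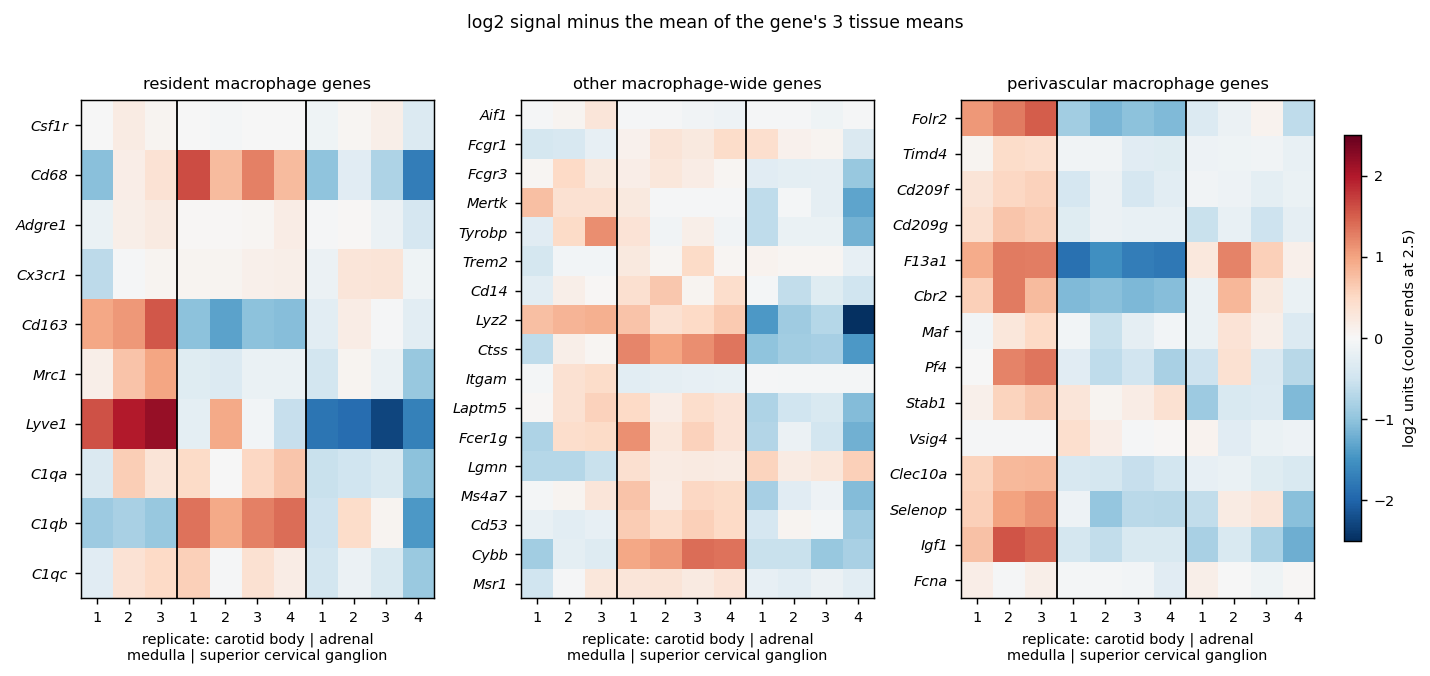
Log2 signal of each gene (rows) on each array (columns, grouped by tissue and numbered by replicate) minus the mean of that gene's 3 tissue means, for the 10 members, 17 macrophage-wide genes and 14 perivascular macrophage genes. The perivascular list is warmest on the carotid body arrays (7 of 14 called higher than in adrenal medulla), while Ctss and Cybb, with Cd68 and C1qb, are warmest on the adrenal medulla arrays.

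Of 8 measured genes associated with microglia and nerve-associated macrophages, P2ry12, a nucleotide receptor, was the 1 called, and it was higher in the carotid body (7.93 ± 0.50) than in the adrenal medulla (5.79 ± 0.05, 4.41-fold) and ganglion (6.42 ± 0.10, 2.84-fold). MHC class II genes, which present antigen, showed 0 of 6 called by limma between carotid body and adrenal medulla, and 2 were higher at an unadjusted p under 0.05. In carotid body 4 were higher than in ganglion, led by H2-Ab1 (12.94 ± 0.55 against 10.51 ± 0.33, 5.38-fold) and H2-Eb1 (4.16-fold), and in adrenal medulla 3 were higher than in ganglion (H2-Eb1 3.07-fold, H2-Ab1 3.06-fold, H2-Aa 2.31-fold). The medians of the list were 0.35, 1.30 and 0.89, in the order of the member counts. Without carotid body replicate 1, 1 was higher in carotid body than in the adrenal medulla.

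Ligands of the members were measured as well. Csf1, the growth factor for CSF1R, averaged 8.59 ± 0.15 in carotid body, 8.06 ± 0.10 in adrenal medulla and 7.98 ± 0.17 in ganglion. The carotid body arrays lay above the others by 0.53 (limma adjusted p = 0.00344) and 0.61 (limma adjusted p = 0.00114), short of 2-fold. Il34, the alternative ligand, averaged 7.11 ± 0.08, 7.10 ± 0.11 and 7.44 ± 0.09 in the same order, with the ganglion arrays above all others by 0.33. Cx3cl1, the ligand of CX3CR1, averaged 6.68 ± 0.05 in carotid body, 7.51 ± 0.23 in adrenal medulla and 5.71 ± 0.10 in ganglion, and adrenal medulla exceeded ganglion 3.49-fold (limma adjusted p = 2.72e-07). Hp, haptoglobin, whose complex with haemoglobin is taken up by CD163, averaged 10.30 ± 0.94 in carotid body, 6.08 ± 0.28 in adrenal medulla and 7.20 in ganglion, where all 4 arrays read 7.20. Hp was 18.7-fold higher in carotid body than in the adrenal medulla (limma adjusted p = 4.43e-06) and 8.61-fold higher than in ganglion (limma adjusted p = 3.62e-05), and it is also made by fat cells and neutrophils. Tgfb1, a growth factor for several macrophage types, was 3.26-fold higher in carotid body and 5.16-fold higher in adrenal medulla than in ganglion.

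Complement genes beyond C1q went in both directions. Of 13 measured, 3 were higher and 5 lower in the carotid body than in the adrenal medulla, 6 were higher and 1 lower in the carotid body than in ganglion, and 6 were higher and 1 lower in adrenal medulla than in ganglion. The medians were -0.30, 1.00 and 0.76. The 1 lower in carotid body than in ganglion (Cd55) was not called without carotid body replicate 1. C1ra, the protease that C1q activates, averaged 10.45 ± 0.10 in carotid body, 10.08 ± 0.15 in adrenal medulla and 7.29 ± 0.17 in ganglion. It was 8.96-fold higher in carotid body and 6.92-fold higher in adrenal medulla than in ganglion, and was not called between carotid body and adrenal medulla (0.37). C4b, the next component cleaved, was 26.9-fold higher in carotid body than in the adrenal medulla (12.05 ± 0.09 against 7.30 ± 0.09, limma adjusted p = 9.41e-11) and 8.90-fold higher than in ganglion. Serping1, the inhibitor of the C1 proteases, was 11.2-fold and 13.6-fold higher in carotid body than in the adrenal medulla and ganglion. C7, of the terminal complex, was 10.5-fold lower in carotid body than in the adrenal medulla, and Cd55, a membrane inhibitor of complement, was 7.59-fold lower. C6 and C2 were 3.08-fold and 2.41-fold lower in the same contrast. C3ar1, a receptor of myeloid cells for a complement fragment, was 2.28-fold lower in carotid body than in the adrenal medulla. It was named after its value was seen.

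Markers of other immune cells were counted beside these values. No gene of 10 for T and NK cells, of 4 for B cells or of 2 for red blood cells was called by limma in any contrast. At an unadjusted p under 0.05 the T and NK cell genes gave 2, 1 and 5, and the others 0. Nkg7, a granule protein of NK cells, had the highest mean of its list over the 11 arrays, at 5.59 ± 0.26, 5.82 ± 0.09 and 5.43 ± 0.24 in carotid body, adrenal medulla and ganglion. Gzma, a granule protease of the same cells, was brighter in adrenal medulla, at 6.18 ± 0.36, and lay under the bound in carotid body (5.23 ± 0.12) and ganglion (5.27 ± 0.30). It was at least 1.75-fold lower in carotid body than there (limma adjusted p = 0.00425) and at least 1.67-fold higher there than in ganglion (limma adjusted p = 0.00284), with log2 differences of -0.95 and 0.91, short of a call. None of the B cell genes lay above the background bound in any tissue. Of 11 genes of monocytes and neutrophils 3 lay above the bound in each tissue. Ccr2, a receptor of recruited monocytes, was 3.54-fold higher in the carotid body (7.66 ± 0.52) than in the adrenal medulla (5.84 ± 0.03). Ly6c2, whose sequence is close to that of an endothelial gene, was 13.2-fold and 9.24-fold higher in carotid body and adrenal medulla than in ganglion. Of 8 dendritic cell genes Cd209a alone was called, 2.36-fold higher in carotid body than in the adrenal medulla. Mast cell genes were 5 of 7 higher in carotid body than in the adrenal medulla, with mean log2 signals of 7.80 to 8.59 on carotid body arrays, 4.79 to 4.97 on adrenal medulla arrays and 5.45 to 5.70 on ganglion arrays. The part of these cell types in the macrophage gene values was not tested.

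The genes most like the members over the 11 arrays were found by Pearson's r among protein-coding genes with an SD of at least 0.5, as a description in which the 3 tissues set most of the spread. The mean of the C1q chains was followed most closely by Ms4a6c (r = 0.978), Lilrb4a (0.973), Cd68 (0.962), Ms4a6d (0.954), Lilr4b (0.952), Ctss (0.937), Stxbp2 (0.934), Snx5 (0.932), Mt1 (0.930) and Tmem39a (0.930). The search for it covered 4489 genes, Cd68 and Ctss among them. Lyve1 was followed by Hgf (0.977), Lmcd1 (0.967), Ccn2 (0.966), Ceacam2 (0.966), Ptbp3 (0.965), Pawr (0.965), Mgp (0.963), Ceacam1 (0.963), Nos3 (0.962) and Ybx3 (0.962), none of which is a member or stands on a macrophage list. Csf1r, whose own spread was small, had no gene above 0.831, the r of Clk1, and the 9 others ran down to 0.775 (Rps24, Nenf, Rpl32l, Son, Leng8, Clk4, Adam4, Rpl35 and Sat1).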

How the data were processed

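Column-purified RNA was amplified, biotin-labelled and hybridised to 1-colour Affymetrix mouse transcriptome arrays, per the labels' protocols and the series' design text. The authors deposited log2 values from RMA (background correction, normalisation across arrays, summary per transcript cluster), run in Affymetrix Expression Console according to the submitters' processing notes. Versions and the array's build are not given in the sources used here, and RMA's own base of 2 was assumed. The top value of an array was 19.65 to 19.93, so a rescaling that no source names is possible. The number of arrays limits the precision.

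Of 65956 transcript clusters, 30604 had 1 gene symbol, 2146 several and 33206 none in the array annotation, and only the first were used. The brightest cluster was kept where a gene had several (355 genes). Symbols were updated through Entrez identifiers in a RefSeq table of GRCm38.p6, which changed 819. One limma fit (limma 3.58.1, R 4.3.3; lmFit, eBayes) with tissue as the only factor covered all 11 arrays, and its code was tested on simulated data. Each p-value sets a difference between tissues against the spread between arrays of a tissue, each array made from a pool. A mean under its background bound was set to the bound before a fold, which is then given as "at least". Between arrays of one tissue Pearson's r across genes was 0.9854 to 0.9962, so none was taken as a repeat deposit. Exact repeats of a value between arrays occurred in 55.5% of genes and in 4 of the 10 members.

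The members and all 18 lists were chosen with earlier results of these data known. All members were named. Of other lists, the called genes with the largest differences (up to 4 a contrast), Csf1, Il34, Cx3cl1 and C1ra were named, and of lists with none called the gene with the highest mean, with the 10 genes most like Csf1r, the C1q mean and Lyve1. Stab2, C3ar1 and Gzma, named beyond this rule, were chosen after their values were seen, and genes the rule allows but the text does not need are left unprinted. C1s1, Spi1 and Cd74 were not analysed here, having no cluster with their symbol alone. Alternatives were other scalings, a dim-gene filter, an intensity trend, array weights, fits of 2 tissues, all clusters, mean of clusters, the replicate number as a block and leaving out each array.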

Additional observations from a re-analysis of the deposited data

Results flagged for a closer look

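Among 100 groups of 4 arrays (50 genes, of which 10 are members, in adrenal medulla and ganglion), 7 held an array whose gap to its neighbours passed Dixon's 95% critical value. For values without repeats, chance flags about 1 in 20 groups. That rate does not strictly hold here, because many values repeat exactly. Where the other 3 arrays read the same, as for Csf1r and Mertk in adrenal medulla, any gap is flagged. The carotid body, with 3 arrays, could not be examined in this way. Among members, Csf1r stood at 9.04 on adrenal medulla replicate 2, where the other 3 arrays all read 9.08, a gap that is small in itself. Cd163 stood at 5.96 on the same array, against 6.24 to 6.27 on the others, and without it the difference of Cd163 between adrenal medulla and ganglion was -0.95. Adrenal medulla replicate 1 stood high for Mertk (8.80 against 8.53 on the others), Lgmn (13.56 against 13.37 to 13.39) and Tgfb1 (10.88 against 9.91 to 10.06). Pdpn, a surface glycoprotein of lymphatic endothelium, stood at 7.60 on adrenal medulla replicate 3 against 7.26 to 7.29. H2-Aa stood at 5.51 on ganglion replicate 4 against 5.99 to 6.03.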

How the results depend on the processing

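Of the member differences, 258 kept direction and call, 3 gained a call, 4 lost one and 5 changed sign when a setting other than the set of arrays was varied, and 302, 6, 8 and 14 when 1 array was left out. The causes were not tested. No sign change was of a called difference. With median centring, carotid body minus adrenal medulla was -0.04 for Csf1r and -0.15 for Adgre1. With array weights it was 0.06 for C1qc, and Cx3cr1 was -0.06 for adrenal medulla minus ganglion. Leaving out 1 array gave, for carotid body minus adrenal medulla, -0.07 to 0.12 for Adgre1, -0.45 to 0.05 for C1qa and -0.25 to 0.13 for C1qc. For adrenal medulla minus ganglion it gave -0.05 to 0.11 for Csf1r, -0.08 to 0.08 for Cx3cr1 and -0.06 to 0.28 for Mrc1. Members lower in carotid body against adrenal medulla numbered 1 with array weights (C1qb) and 1 to 2 with 1 array left out. Members higher in carotid body against ganglion numbered 5 with no minimum difference and 2 to 5 with 1 array left out. The member lower in adrenal medulla against ganglion (Cd163) was lost with median centring and with quantile normalisation (0 each), and the count was 0 to 1 with 1 array left out. Testing all transcript clusters gave 5157 calls between carotid body and adrenal medulla, against 3320. Median centring moved the all-gene median of that contrast to -0.10, against 0.05. With the replicate number as a block, Adgre1 was -0.02 for carotid body minus adrenal medulla and calls over all genes were 3302, 4115 and 3986, with the member counts unchanged. Macrophage-wide genes higher in carotid body against ganglion then numbered 1, also with median centring, and 5 with quantile normalisation, in counts added after seeing the data. Same-numbered arrays correlated between -0.17 and 0.25 in their deviations from the tissue means. With so few arrays a tissue, these values cannot tell whether same-numbered pools shared animals. The 3 carotid body arrays limit the precision of all its contrasts.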
